A study of Mus musculus with 16 samples.

Results

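The genes described here are 37 genes of glutathione, thioredoxin and iron defence. They were chosen by name, as the rows whose symbol is on a list of these genes, and all 37 were among the 30386 genes of the deposited expression table. The list takes in glutathione synthesis, glutathione peroxidases and transferases, the thioredoxin system with its peroxiredoxins, glutaredoxins, superoxide dismutases and catalase, the regulators *Nfe2l2* and *Keap1*, the quinone reductase *Nqo1*, haem oxygenases and ferritin. The list was drawn up with earlier results of these data known.

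Cells that use oxygen make superoxide and hydrogen peroxide, and these genes encode the enzymes that remove them or repair the oxidised thiols they leave behind. Glutathione and thioredoxin are parallel systems that both draw their reducing power from NADPH. Haem oxygenase sets iron free from haem, and ferritin stores iron that would otherwise feed the formation of radicals from peroxide. Many of these genes can be induced by NRF2, the product of *Nfe2l2*, which KEAP1 marks for degradation until oxidants or electrophiles disarm it. Neural stem and progenitor cells of the adult subventricular zone (SVZ) are known to be sensitive to their redox state.

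The study asked how a higher level of *Dbx2*, a homeobox gene, alters the transcriptome of neural stem/progenitor cells (NSPCs) of the mouse SVZ. The 8 samples of *Dbx2*-NSPCs carried a constitutive *Dbx2* transgene and the 8 samples of *GFP*-NSPCs a control *GFP* transgene. Both kinds of line had been made from SVZ cells of C57BL/6 J/Babr mice of 3 months of age by nucleofection of pTP6 plasmids and puromycin selection, were kept as bulk cultures with EGF and FGF2, and were sampled from non-adherent culture. The lines came as 2 pairs from independent derivations, so that the samples of a group were repeat cultures of few lines. The labels number the samples of each transgene from 1 to 8 without giving the pair of lines, and p-values therefore measure the spread between these samples. The control lines carry the control plasmid and the drug selection as well, and both groups keep their endogenous *Dbx2*.

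RNA had been read near the poly-A end of each transcript and is given as CPM, the reads of a gene scaled to the total of its sample, with 1803928 to 3293285 reads per sample. A gene at 3 reads, taken as the floor, was at 0.911 to 1.66 CPM. This floor covers counting error only, and the study's methods mention no molecular identifiers. *Dbx2* itself was at 30.7 to 171 CPM (median 64.4) in *GFP*-NSPCs and 114 to 232 CPM (median 147) in *Dbx2*-NSPCs, 1.26 higher on the log2 scale (limma adjusted p = 0.00978), and the groups overlapped through *GFP*-NSPC replicates 1 and 3. The rise of *Dbx2* was 0.54 in replicates 1 to 4 (limma adjusted p = 0.0891) and 1.99 in replicates 5 to 8 (5.67e-08). These changes differed by 1.45 (limma adjusted p = 0.000104). Mean *Dbx2* in *GFP*-NSPCs was 120 CPM in replicates 1 to 4 and 34.0 CPM in replicates 5 to 8. Markers of neural stem and progenitor cells were all 8 above the detection filter and summed to 5943 to 7387 CPM in *GFP*-NSPCs compared with 4801 to 6221 CPM in *Dbx2*-NSPCs, with *Fabp7*, *Egfr* and *Slc1a3* called lower. The 6 markers of microglia and macrophages summed to at most 1.63 CPM in any sample. None of them passed the detection filter, and *Aif1* and *Tyrobp* were at 0 throughout. Of the endothelial markers, *Cldn5* and *Cdh5* were also at 0 throughout. The 4 endothelial markers together still reached 8.08 CPM in the highest *Dbx2*-NSPC sample. Their sum in the highest *GFP*-NSPC sample was 5.52 CPM, and the 1 endothelial marker above the detection filter was not called. The 5 astrocyte markers summed to 243 to 525 CPM in *GFP*-NSPCs compared with 121 to 260 CPM in *Dbx2*-NSPCs, with *Gfap* called higher and *Aldh1l1* and *Gja1* lower. Oligodendrocyte lineage markers summed to 2455 to 3182 CPM in *GFP*-NSPCs and 2284.5 to 2959 CPM in *Dbx2*-NSPCs, with none called. Neuroblast and neuron markers summed to 839 to 1293 CPM in *GFP*-NSPCs and 702 to 906 CPM in *Dbx2*-NSPCs, with *Map2* called lower. The 3 ependymal markers summed to 9.56 to 21.35 CPM in *GFP*-NSPCs and 14.35 to 34.67 CPM in *Dbx2*-NSPCs, with *Ccdc153* called higher. Markers of pericytes and fibroblasts summed to at most 3.42 CPM in any sample, and none passed the detection filter. Mitochondrially encoded genes took 3.19% to 6.96% of the reads in *GFP*-NSPCs and 4.17% to 8.17% in *Dbx2*-NSPCs. *GFP*-NSPC replicate 1, at 6.96%, stood apart from the 3.19% to 4.81% of the other *GFP*-NSPCs, and it was also the *GFP*-NSPC sample closest to the *Dbx2*-NSPCs in several of the genes below. The part of these differences in the results was not tested, and in bulk RNA fewer cells of a type and less RNA per cell cannot be told apart.

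Of the 37 genes, limma called 7 at an adjusted p under 0.05, 5 higher and 2 lower in *Dbx2*-NSPCs. The called share was 18.9%, against 15.8% of all 12533 tested genes, so the list as a whole held a share of called genes near the background. By direction the background was 8.03% called higher and 7.78% called lower. The genes that rose were *Gpx8*, *Srxn1*, *Nfe2l2*, *Hmox1* and *Fth1*, and those that fell were *Txn1* and *Txnrd1*. EdgeR and DESeq2, run on whole reads recovered from the CPM, called the same 7 genes. The median log2 fold change was 0.04 over the 37 genes and -0.02 over all tested genes, and 21 of the 37 values were above 0. A score per sample, the mean log2 level of the 37 genes less that of the tested genes together, was 1.60 ± 0.103 in *GFP*-NSPCs against 1.65 ± 0.105 in *Dbx2*-NSPCs (SD, n = 8 each). These scores differed by 0.052, less than the spread within either group, and with the median of the genes in place of the mean the difference was -0.034.

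**Figure D1:**
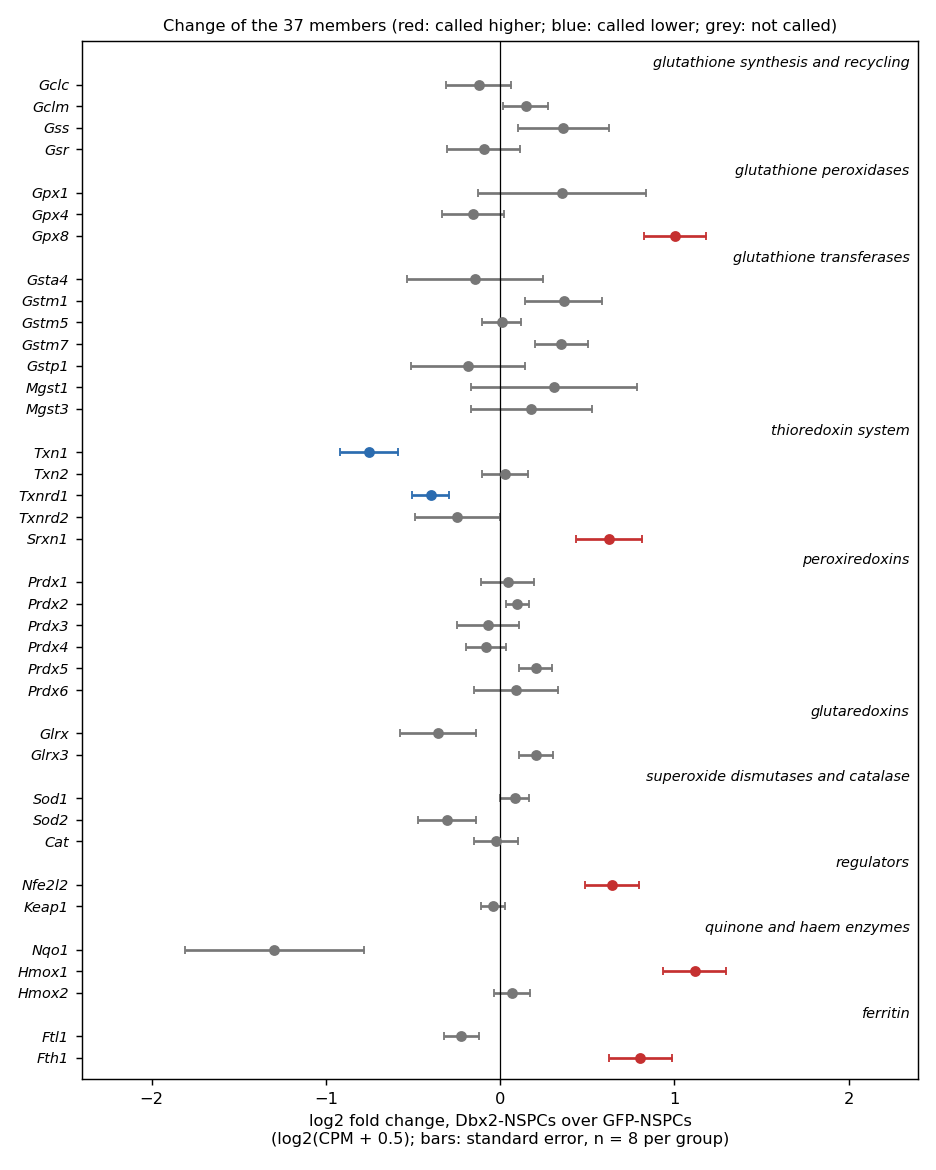
Log2 fold change between *Dbx2*-NSPCs and *GFP*-NSPCs (horizontal axis, on the log2(CPM + 0.5) scale) of each of the 37 genes, ordered by role, with bars for the standard error and n = 8 per group. The 7 called genes, in red and blue, run from -0.75 for *Txn1* to 1.12 for *Hmox1*, and most of the 30 grey genes lie close to 0, with *Nqo1* at -1.30 and a wide bar.

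Since several of these genes are known targets of NRF2, the promoters of 4 of the 7 called genes are shown, read from RefSeq on build GRCm38.p6 for the 32 of the 37 genes that had an entry. The antioxidant response element, searched as TGACNNNGC on both strands in windows from 250 bases before to 50 bases after the start site, was found in 9 of the 44 promoters of these 32 genes (20.45%), in 12.39% of all 32851 promoters and in 14.16% of the promoters of tested genes. Overlap with other motifs was not searched. The 9 genes with a match were *Nfe2l2*, *Srxn1*, *Txnrd1*, *Gclm*, *Gstm5*, *Gstm7*, *Mgst1*, *Prdx1* and *Sod1*, of which the first 3 were called. The 250 bases before the start site are printed for these 3 and, as an example without a match, for *Txn1*, with the letters of a match in capitals. *Nfe2l2* is shown at chr2:75704664-75704913 on the minus strand, *Srxn1* at chr2:152105274-152105523 on the plus strand, *Txnrd1* at an internal start site at chr10:82858956-82859205 on the plus strand and *Txn1* at chr4:57956412-57956661 on the minus strand.
Nfe2l2: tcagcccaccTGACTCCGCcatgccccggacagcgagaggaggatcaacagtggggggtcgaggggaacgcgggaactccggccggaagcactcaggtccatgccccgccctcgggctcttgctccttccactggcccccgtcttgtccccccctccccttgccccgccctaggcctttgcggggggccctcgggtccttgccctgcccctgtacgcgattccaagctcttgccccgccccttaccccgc
Srxn1: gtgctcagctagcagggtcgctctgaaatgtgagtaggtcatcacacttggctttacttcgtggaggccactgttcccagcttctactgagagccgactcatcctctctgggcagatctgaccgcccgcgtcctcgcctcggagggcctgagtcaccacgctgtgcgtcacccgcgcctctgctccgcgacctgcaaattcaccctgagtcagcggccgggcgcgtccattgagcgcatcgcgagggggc
Txnrd1: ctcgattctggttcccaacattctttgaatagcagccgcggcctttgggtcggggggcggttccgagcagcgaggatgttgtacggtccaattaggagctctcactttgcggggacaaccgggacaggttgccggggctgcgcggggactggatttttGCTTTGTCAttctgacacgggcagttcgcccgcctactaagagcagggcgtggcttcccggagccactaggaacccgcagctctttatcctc
Txn1: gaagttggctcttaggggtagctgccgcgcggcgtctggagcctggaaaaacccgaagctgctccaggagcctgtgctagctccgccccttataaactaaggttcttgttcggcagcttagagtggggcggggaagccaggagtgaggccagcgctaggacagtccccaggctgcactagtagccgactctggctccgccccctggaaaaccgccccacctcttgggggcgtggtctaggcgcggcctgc

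The match of *Nfe2l2* began 240 bases before its start site, and that of *Txnrd1* 92 bases before the internal start site, on the opposite strand. *Srxn1* had its match 29 bases after the start site, outside the printed stretch. *Gpx8* and *Fth1* were the other called genes without a match, and *Hmox1* had no entry. A match says only that the letters occur.

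The enzymes that build and recycle glutathione were not called. *Gclc* and *Gclm*, the catalytic and modifier subunits of the rate-limiting glutamate-cysteine ligase, were at 74.8 ± 25.0 and 105 ± 22.1 CPM in *GFP*-NSPCs compared with 66.6 ± 14.6 and 114 ± 18.1 CPM in *Dbx2*-NSPCs (n = 8 each, SD). *Gss*, glutathione synthetase, and *Gsr*, the reductase that returns oxidised glutathione to its reduced form, had log2 fold changes of 0.36 and -0.10. The adjusted p of these 4 genes was 0.377 or more in limma, none was under 0.05 unadjusted, and edgeR and DESeq2 called none. In replicates 5 to 8 alone *Gclc* was called lower (log2 fold change -0.30, limma adjusted p = 0.0284), without overlap between the groups there. The 3' end of *Gss* is covered by *Acss2* on the other strand and that of *Gclm* by *Gm17494*, and since the strand used in counting is not given in the sources used here, their reads may be mixed.

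Among the glutathione peroxidases, *Gpx8* rose. It encodes a peroxidase of the endoplasmic reticulum membrane and lies on chromosome 13 from 113042753 to 113046410 (ENSMUSG00000021760). In *GFP*-NSPCs its level was 10.75 CPM at the lowest, 17.3 CPM at the median and 27.4 CPM at the highest. In *Dbx2*-NSPCs it was 29.6 CPM at the lowest, 35.5 CPM at the median and 46.9 CPM at the highest. All 8 *Dbx2*-NSPC samples were thus above all 8 *GFP*-NSPC samples, the closest of which was replicate 1. The change on the log2 scale was 1.002 (standard error 0.177, limma adjusted p = 0.000594), a fold of 2.003 on the log2(CPM + 0.5) scale. *Gpx8* and *Hmox1* were the 2 of the 37 genes (5.41%) without overlap between the groups, against 3.41% of all tested genes. *Cdc20b*, which covers the 3' end of *Gpx8* on the other strand, was at a mean of 0.02 CPM.

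The other 2 peroxidases were not called. *Gpx4*, which reduces lipid hydroperoxides in membranes and guards against ferroptosis, was at 14.7 ± 2.86 CPM in *GFP*-NSPCs compared with 13.4 ± 3.34 CPM in *Dbx2*-NSPCs (SD, n = 8 each; log2 fold change -0.15, limma adjusted p = 0.615). *Gpx4-ps2*, a transcribed pseudogene, matches the last 300 bases of *Gpx4* at 99.67% identity, so some reads of *Gpx4* may have been placed there or lost. *Gpx1*, the main cytosolic peroxidase for hydrogen peroxide, had a log2 fold change of 0.36 with a standard error of 0.482 (limma adjusted p = 0.680), and its levels and changes by replicate number are given further on.

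None of the 7 glutathione transferases, which couple glutathione to electrophiles, was called by limma, edgeR or DESeq2, and *Gstm7* was the one with an unadjusted p under 0.05. *Gstm1* was at 260 to 618 CPM in *GFP*-NSPCs compared with 277 to 784 CPM in *Dbx2*-NSPCs (log2 fold change 0.36, limma adjusted p = 0.287). With a block for the replicate number the adjusted p of *Gstm1* was 0.0289, and over all alternatives it ran from 0.0245 to 0.466. *Gstm7* was at 41.6 ± 11.6 CPM and 51.9 ± 8.30 CPM (SD, n = 8 each; log2 fold change 0.35, limma adjusted p = 0.133), and without *GFP*-NSPC replicate 1 it was called with an adjusted p of 0.0302 and a log2 fold change of 0.45. *Gstm5* had a log2 fold change of 0.01, and *Gstp1* and *Mgst3* were each at or under 3 reads in at least 1 sample. The log2 fold changes of *Gstp1* and *Mgst3* were -0.18 and 0.18, and the last 300 bases of *Gstp1* are identical to those of *Gstp2*, so that its reads may have been placed elsewhere or lost.

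The thioredoxin system held 3 of the 7 called genes, and they did not move one way. Thioredoxin 1, encoded by *Txn1*, is the cytosolic protein that reduces disulfides and recycles peroxiredoxins. *Txn1* lies on chromosome 4 from 57943373 to 57956411 (ENSMUSG00000028367). Its level in *GFP*-NSPCs was 479 CPM at the lowest, 624.99 CPM at the median and 658 CPM at the highest. In *Dbx2*-NSPCs the level of *Txn1* was 161 CPM at the lowest, in replicate 4, 383 CPM at the median and 490.27 CPM at the highest. The groups overlapped through 1 sample each, *GFP*-NSPC replicate 2 and *Dbx2*-NSPC replicate 1, and in all 8 same-numbered comparisons the *Dbx2*-NSPC sample was lower. Here and below, such comparisons only describe the values, since the labels do not say that the numbers pair samples. *Txn1* changed by -0.75 on the log2 scale (standard error 0.168, limma adjusted p = 0.00440), a fold decrease of 1.68.

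*Txnrd1* encodes the selenium-containing reductase that returns thioredoxin 1 to its reduced form, and it fell too. It lies on chromosome 10 from 82833951 to 82897712 (ENSMUSG00000020250). The *Txnrd1* level was 256 CPM at the lowest, 342 CPM at the median and 375 CPM at the highest in *GFP*-NSPCs, and 191 CPM, 245 CPM and 357 CPM in *Dbx2*-NSPCs. The *Dbx2*-NSPC value of 357 CPM came from replicate 4 and lay above 6 of the 8 *GFP*-NSPC samples, while the *GFP*-NSPC value of 256 CPM came from replicate 1. *Txnrd1* changed by -0.40 on the log2 scale (standard error 0.107, limma adjusted p = 0.0152), with the *Dbx2*-NSPC sample lower in 7 of 8 same-numbered comparisons.

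*Srxn1*, in contrast, rose. It encodes sulfiredoxin, which repairs overoxidised peroxiredoxins, and lies on chromosome 2 from 152105516 to 152111376 (ENSMUSG00000032802). Its level was 19.2 CPM at the lowest, 31.1 CPM at the median and 48.2 CPM at the highest in *GFP*-NSPCs, and 36.2 CPM, 49.99 CPM and 61.8 CPM in *Dbx2*-NSPCs. *GFP*-NSPC replicates 1, 6 and 8 lay within the range of the *Dbx2*-NSPCs and the other 5 below it. The log2 fold change was 0.63 (standard error 0.189, limma adjusted p = 0.0294), higher in 7 of 8 same-numbered comparisons. This call was lost without *Dbx2*-NSPC replicate 6, 7 or 8 or *GFP*-NSPC replicate 2, 3 or 4, with log2 fold changes of 0.52 to 0.59 and adjusted p of 0.0548 to 0.0594, and in replicates 1 to 4 alone (0.70, adjusted p = 0.0573). The mitochondrial partners *Txn2* and *Txnrd2* were at 0.03 and -0.25 on the log2 fold scale (limma adjusted p = 0.916 and 0.554).

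**Figure D2:**
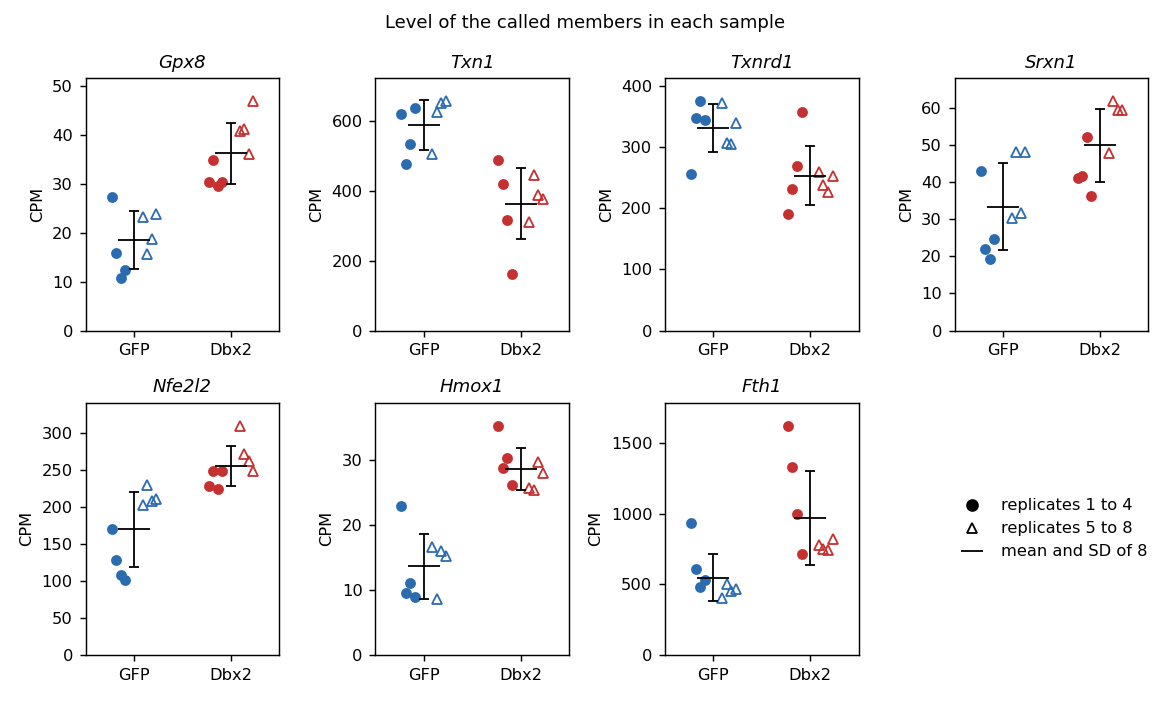
Level in CPM (vertical axis, from 0) of the 7 called genes in each of the 8 *GFP*-NSPC (blue) and 8 *Dbx2*-NSPC (red) samples, with replicates 1 to 4 as filled circles, replicates 5 to 8 as open triangles and black lines for the mean and SD. *Gpx8* and *Hmox1* show no overlap between the groups, and in *Fth1* the highest *GFP*-NSPC value, 932 CPM, is replicate 1.

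The 6 peroxiredoxins, which use thioredoxin or glutathione to reduce peroxides, had log2 fold changes of -0.08 to 0.20, and none was called by limma, edgeR or DESeq2. *Prdx5*, a peroxiredoxin found in mitochondria and peroxisomes, was the one with an unadjusted p under 0.05. It was at 117 to 168 CPM in *GFP*-NSPCs compared with 132 to 179 CPM in *Dbx2*-NSPCs and was higher in *Dbx2*-NSPCs in all 8 same-numbered comparisons (log2 fold change 0.20, limma adjusted p = 0.157). With a block for the replicate number its adjusted p was 0.0431, in a range over all alternatives from 0.0431 to 0.256. *Prdx2*, an abundant cytosolic peroxiredoxin, was at 441 ± 18.6 CPM in *GFP*-NSPCs compared with 473 ± 44.5 CPM in *Dbx2*-NSPCs (SD, n = 8 each), and its 3' end is covered by *Junb* on the other strand. *Prdx1*, *Prdx3*, *Prdx4* and *Prdx6* had adjusted p of 0.691 to 0.888 in limma.

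The glutaredoxins, which remove glutathione from protein thiols or carry iron-sulfur clusters, were not called by limma, edgeR or DESeq2. *Glrx* was at -0.36 on the log2 fold scale (limma adjusted p = 0.292). *Glrx3* had a log2 fold change of 0.21 and the one unadjusted p under 0.05 of this pair (adjusted p = 0.167).

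Superoxide dismutases and catalase, which turn superoxide into peroxide and peroxide into water, gave no call with limma, edgeR or DESeq2 and no unadjusted p under 0.05. The cytosolic *Sod1* was at 939 ± 110 CPM in *GFP*-NSPCs compared with 993 ± 97.7 CPM in *Dbx2*-NSPCs (SD, n = 8 each; log2 fold change 0.08, limma adjusted p = 0.556). The mitochondrial *Sod2* was at 77.4 ± 18.6 CPM and 63.5 ± 19.3 CPM (log2 fold change -0.30, limma adjusted p = 0.240), and *Cat* at 38.4 ± 7.50 CPM and 37.6 ± 5.61 CPM (log2 fold change -0.02, above 0 with the other scalings). Stretches of the 3' ends of *Sod1* and *Sod2* have near-identical matches in other annotated genes. For *Sod2* these include *Tmem245*, at a mean of 32.05 CPM, over 191 bases at 95.81% identity. *Scaf4* covers the 3' end of *Sod1* on the other strand.

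Of the regulators, *Nfe2l2* rose. It encodes NRF2, the transcription factor of the antioxidant response, and lies on chromosome 2 from 75675513 to 75704641 (ENSMUSG00000015839). Its level was 101 CPM at the lowest, 187 CPM at the median and 230.35 CPM at the highest in *GFP*-NSPCs, and 224 CPM, 249.3 CPM and 310.45 CPM in *Dbx2*-NSPCs. The groups overlapped through *GFP*-NSPC replicate 6, which lay above *Dbx2*-NSPC replicates 1 and 3, and in all 8 same-numbered comparisons the *Dbx2*-NSPC sample was higher. *Nfe2l2* changed by 0.64 on the log2 scale (standard error 0.156, limma adjusted p = 0.00814). *Keap1*, which holds NRF2 down, was at 131 ± 9.26 CPM in *GFP*-NSPCs compared with 127 ± 9.21 CPM in *Dbx2*-NSPCs (SD, n = 8 each; log2 fold change -0.04, limma adjusted p = 0.736).

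*Hmox1* gave the largest change among the called genes. It encodes the inducible haem oxygenase, which splits haem into biliverdin, carbon monoxide and iron, and lies on chromosome 8 from 75093621 to 75100589 (ENSMUSG00000005413). In *GFP*-NSPCs its level was 8.59 CPM at the lowest, 13.2 CPM at the median and 23.0 CPM, in replicate 1, at the highest. In *Dbx2*-NSPCs it was 25.5 CPM at the lowest, 28.4 CPM at the median and 35.3 CPM at the highest, so that the groups did not overlap. *Hmox1* changed by 1.12 on the log2 scale (standard error 0.180, limma adjusted p = 0.000260), a fold of 2.17. *Hmox2*, the constitutive haem oxygenase, was at 49.8 ± 5.95 CPM and 52.4 ± 7.54 CPM (SD, n = 8 each; limma adjusted p = 0.723). *Cdip1*, at a mean of 82.94 CPM, covers the 3' end of *Hmox2* on the other strand.

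*Nqo1*, the quinone reductase whose transcript is a common readout of NRF2, was near the floor of detection. It was at 0.82 to 8 CPM (median 2.95) in *GFP*-NSPCs and 0 to 5.14 CPM (median 1.34) in *Dbx2*-NSPCs, and 5 of the 16 samples were at or under 3 reads. The log2 fold change was -1.30 with a standard error of 0.513 (limma adjusted p = 0.0951), and the *Dbx2*-NSPC sample was lower in 6 of 8 same-numbered comparisons, equal in 1 and higher in 1. With a block for the replicate number the adjusted p was 0.0296, and without *Dbx2*-NSPC replicate 1 it was 0.0334 at a log2 fold change of -1.58. Over all alternatives it ran from 0.00764 to 0.577.

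The ferritin chains went different ways. *Fth1*, the heavy chain that oxidises iron for storage, lies on chromosome 19 from 9980598 to 9985098 (ENSMUSG00000024661) and rose. Its level was 406 CPM at the lowest, 492 CPM at the median and 932 CPM at the highest in *GFP*-NSPCs, and 714 CPM, 799.7 CPM and 1624 CPM in *Dbx2*-NSPCs. *GFP*-NSPC replicate 1 alone made the groups overlap, since the other *GFP*-NSPCs were at 610.2 CPM or less, and in all 8 same-numbered comparisons the *Dbx2*-NSPC sample was higher. The log2 fold change was 0.80 (standard error 0.180, limma adjusted p = 0.00454), and without *GFP*-NSPC replicate 1 it was 0.92. *Ftl1*, the light chain, was at 230.4 ± 27.7 CPM in *GFP*-NSPCs compared with 198 ± 29.1 CPM in *Dbx2*-NSPCs (SD, n = 8 each; log2 fold change -0.22, limma adjusted p = 0.145, unadjusted p = 0.0382), and it was called lower in replicates 5 to 8 alone (-0.30, adjusted p = 0.0234). The last 300 bases of *Ftl1* had near-identical matches in 10 other annotated genes. *Ftl1-ps1* matched over all 300 bases and the rest over 109 to 137 bases, so some *Ftl1* reads may have been placed elsewhere or lost.

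Without *GFP*-NSPC replicate 1 the 7 called genes were all still called, with adjusted p of 3.02e-05 to 0.0188, and *Gstm7* was added. With a block for the replicate number limma called 10 of the 37 genes, 7 higher and 3 lower, against 21.7% of all tested genes (10.8% higher and 10.9% lower), by adding *Gstm1*, *Prdx5* and *Nqo1* to the 7. With the replicate set (numbers 1 to 4 or 5 to 8) as a covariate in place of the block, limma called the same genes. The adjusted p was then 0.0258 for *Gstm1*, 0.0484 for *Prdx5* and 0.0241 for *Nqo1*.

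The samples of each transgene also divided by their numbers. Replicates 1 to 4 and replicates 5 to 8 were known from earlier results of these data to lie apart within both transgenes, and the labels do not say what the division is. In *GFP*-NSPCs, 14 of the 37 genes (37.8%) had no overlap between these replicate sets, against 28.9% of all tested genes, and in *Dbx2*-NSPCs 12 (32.4%), against 19.8%. *Gclc*, *Gclm* and *Mgst1* were higher in replicates 5 to 8 with both transgenes. *Gclc*, for example, was at 51.8 ± 2.71 CPM in replicates 1 to 4 and 97.7 ± 6.37 CPM in replicates 5 to 8 of *GFP*-NSPCs (SD, n = 4 each). *Gpx1*, *Gstm1*, *Txn2* and *Prdx6* were lower in replicates 5 to 8 with both transgenes. *Prdx6*, a peroxidase that also acts on phospholipids, was at 554 ± 139 CPM in replicates 1 to 4 and 299.8 ± 18.4 CPM in replicates 5 to 8 of *GFP*-NSPCs, and at 634 ± 30.5 CPM and 292 ± 18.7 CPM in *Dbx2*-NSPCs (n = 4 each, SD).

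Within each replicate set, *Gpx8*, *Nfe2l2*, *Hmox1* and *Fth1* rose both times. In replicates 1 to 4 limma called 8 of the 37 genes, against 15.6% of all tested genes, and in replicates 5 to 8 it called 13, against 23.2%. On the log2 scale the change in replicates 1 to 4 and then in replicates 5 to 8 was 0.99 and 1.01 for *Gpx8*, 1.27 and 0.96 for *Hmox1*, 0.85 and 0.76 for *Fth1* and 0.93 and 0.36 for *Nfe2l2*. *Gsta4* was called in both sets, *Gpx1*, *Gstm1* and *Glrx* in replicates 1 to 4, and *Gclc*, *Gstm7*, *Mgst1*, *Txn1*, *Txnrd1*, *Srxn1*, *Nqo1* and *Ftl1* in replicates 5 to 8. *Txn1* and *Txnrd1* were called in the latter at -0.69 and -0.44, and had values of -0.82 and -0.36 in replicates 1 to 4 that did not pass the test. The difference between the sets was itself tested for every gene, and for *Txn1* and *Txnrd1* it was 0.13 and -0.08 (limma adjusted p = 0.850 and 0.868).

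**Figure D3:**
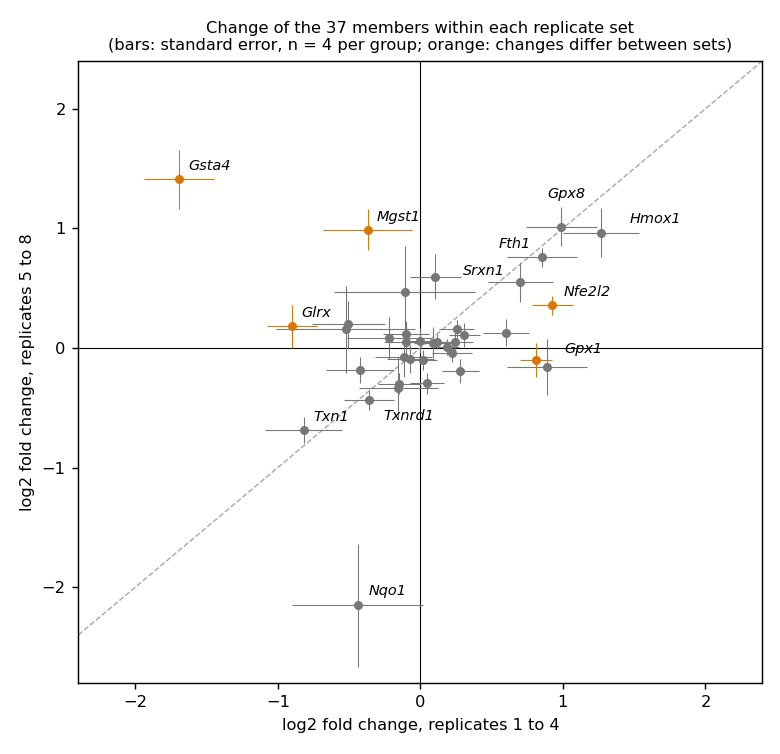
Log2 fold change of each of the 37 genes in replicates 1 to 4 (horizontal axis) and in replicates 5 to 8 (vertical axis), with bars for the standard error, n = 4 per group, and a dashed line where both are equal. *Gpx8*, *Hmox1* and *Fth1* lie near that line, while *Gsta4*, in orange with the other 4 genes whose changes differed, lies at -1.69 and 1.41.

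For 5 of the 37 genes (13.5%) the change differed between the replicate sets at an adjusted p under 0.05, against 9.44% of all tested genes. The clearest was *Gsta4*, a transferase for the lipid peroxidation product hydroxynonenal. In replicates 1 to 4 it was at 18.1, 16.2, 15.6 and 19.3 CPM in *GFP*-NSPCs and at 6.42, 5.46, 3.26 and 5.38 CPM in *Dbx2*-NSPCs. In replicates 5 to 8 it was at 6.65, 5.83, 4.10 and 4.52 CPM in *GFP*-NSPCs and at 16.5, 11.8, 18.1 and 12.8 CPM in *Dbx2*-NSPCs. It therefore fell in the former set and rose in the latter, without overlap in either, and the log2 fold changes of -1.69 and 1.41 differed by 3.10 (standard error 0.349, limma adjusted p = 7.30e-07). Over all 16 samples its log2 fold change was -0.14 (limma adjusted p = 0.848).

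*Gpx1* rose in replicates 1 to 4. There it was at 192, 165, 175 and 181 CPM in *GFP*-NSPCs and at 292, 366, 333 and 266 CPM in *Dbx2*-NSPCs. In replicates 5 to 8 it was at 73.1, 57.4, 58.7 and 51.8 CPM and at 70.4, 52.2, 58.2 and 45.2 CPM, and the groups overlapped. The log2 fold changes, 0.81 and -0.10, differed by -0.91 (standard error 0.184, limma adjusted p = 0.00141).

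*Mgst1*, a membrane-bound transferase of the endoplasmic reticulum and mitochondria, rose in replicates 5 to 8. There it was at 18.3, 32.5, 24.9 and 30.4 CPM in *GFP*-NSPCs and at 53.85, 57.15, 55.1 and 42.9 CPM in *Dbx2*-NSPCs, without overlap. In replicates 1 to 4 it was at 14.9, 10.9, 10.75 and 10.3 CPM and at 11.2, 10.6, 11.7 and 4.31 CPM. The log2 fold changes, -0.37 in replicates 1 to 4 and 0.99 in replicates 5 to 8, differed by 1.36 (standard error 0.350, limma adjusted p = 0.0118).

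*Glrx*, the cytosolic glutaredoxin, fell in replicates 1 to 4. Its levels there were 40.3, 42.7, 45.6 and 39.0 CPM in *GFP*-NSPCs compared with 31.5, 20.6, 18.6 and 20.1 CPM in *Dbx2*-NSPCs, without overlap. In replicates 5 to 8 the levels were 18.8, 18.4, 18.4 and 21.0 CPM and 19.4, 18.3, 20.8 and 30.4 CPM. The log2 fold changes, -0.90 and 0.18, differed by 1.08 (standard error 0.255, limma adjusted p = 0.00583). *Nfe2l2* rose in both sets but by different amounts, with a difference of -0.57 (standard error 0.170, limma adjusted p = 0.0321). Its *GFP*-NSPC level was 127 ± 31.1 CPM in replicates 1 to 4 and 213 ± 11.9 CPM in replicates 5 to 8, and its *Dbx2*-NSPC level 238 ± 13.3 CPM and 274 ± 26.2 CPM (SD, n = 4 each).

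**Figure D4:**
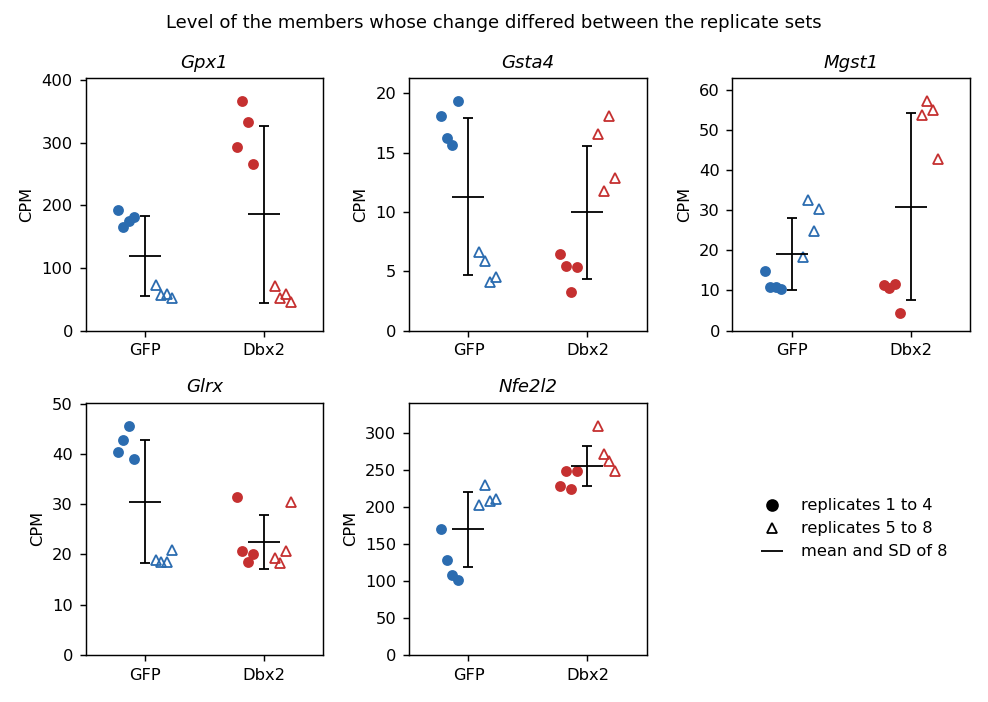
Level in CPM (vertical axis, from 0) of the 5 genes whose change differed between the replicate sets, in each *GFP*-NSPC (blue) and *Dbx2*-NSPC (red) sample, with replicates 1 to 4 as filled circles, replicates 5 to 8 as open triangles and black lines for the mean and SD of 8. In *Gsta4* the filled and open symbols change places between the groups, and in *Gpx1* the filled circles lie above the open triangles in both.

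Around these genes, 168 further genes of the same pathways were looked at in 5 lists, of which 151 were tested, and 20 rose and 9 fell. The called share of 19.2% compares with 15.8% of all tested genes. The 9 lower calls were 5 without *GFP*-NSPC replicate 2, 3 or 4, and with a block for the replicate number the counts were 27 higher and 18 lower. That block also raised the called share of all tested genes, to 21.7% (10.8% higher and 10.9% lower).

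In the wider glutathione list, 2 of 26 tested genes rose and 2 fell, a called share of 15.4% against 15.8% of all tested genes. *Slc7a11*, the cystine importer that supplies cysteine for glutathione, gave the largest change. It was at 8.82 to 25.5 CPM (median 16.7) in *GFP*-NSPCs and 0.61 to 5.74 CPM (median 1.88) in *Dbx2*-NSPCs, and 3 samples were at or under 3 reads. The groups did not overlap, and the log2 fold change was -2.87 (standard error 0.336, limma adjusted p = 8.80e-06). *Slc3a2*, the heavy chain that *Slc7a11* shares with other amino acid transporters, rose (0.51), as did *Ggct* (0.83), which acts in glutathione breakdown. *Gstcd* fell (-0.52). With the block 4 genes of this list were called higher and 3 lower, against 10.8% and 10.9% of all tested genes.

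In the wider thioredoxin and antioxidant list, 6 of 33 tested genes rose and none fell, a called share of 18.2% against 15.8% of all tested genes. The largest were *Nxn*, nucleoredoxin, at a log2 fold change of 0.97, *Msrb1*, a methionine sulfoxide reductase, at 0.73, *Oxr1* at 0.64 and *Sesn2*, a stress-inducible sestrin, at 0.60 (limma adjusted p = 0.00554, 0.0114, 0.00147 and 0.00457). The changes of *Nxn* and *Oxr1* differed between the replicate sets, with log2 fold changes of 1.68 and 1.04 in replicates 1 to 4 but 0.26 and 0.25 in replicates 5 to 8 (limma adjusted p of the difference = 0.000349 and 0.00231). Of 20 selenoproteins and factors of their synthesis, *Selenom* (0.61) and *Selenos* (0.25) rose and none fell, with a median of -0.19 over the list. The called share was 10%, against 15.8% of all tested genes. With a block for the replicate number 3 of these 20 genes were called higher and 5 lower, against 10.8% and 10.9% of all tested genes.

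In the list of NRF2 partners and NADPH genes, 6 of 32 tested genes rose and 4 fell, a called share of 31.25% against 15.8% of all tested genes. *Bach2*, a repressor of the BACH family that binds the same elements as NRF2, was at 26.3 to 47.3 CPM in *GFP*-NSPCs compared with 13.2 to 25.5 CPM in *Dbx2*-NSPCs, without overlap (log2 fold change -1.13, limma adjusted p = 4.18e-05). *Bach1*, the family member best known for repressing *Hmox1*, was at -0.11 on the log2 fold scale (limma adjusted p = 0.632). *Me1*, malic enzyme, which makes NADPH, rose by 0.89 on the log2 scale, and *Abcc4*, an exporter, by 0.74. *Slc48a1*, a haem transporter, was at 75.8 to 131 CPM in *GFP*-NSPCs compared with 145 to 169 CPM in *Dbx2*-NSPCs, again without overlap (log2 fold change 0.74, limma adjusted p = 1.34e-05). *G6pdx*, *Cbr1* and *Cbr3* were the other genes that rose, and *Idh1*, *Idh2* and *Rbx1* the others that fell.

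In the iron and haem list, 4 of 40 tested genes rose and 3 fell, a called share of 17.5% against 15.8% of all tested genes. *Cp*, ceruloplasmin, which oxidises iron at its export, rose (log2 fold change 0.79, limma adjusted p = 0.0155), and its change differed between the replicate sets (1.33 in replicates 1 to 4 and 0.24 in replicates 5 to 8, limma adjusted p of the difference = 0.0219). *Slc39a14*, an importer of iron and zinc, *Cisd3*, an iron-sulfur protein of mitochondria, and *Fdxr*, ferredoxin reductase, rose by 0.64, 0.89 and 0.69. *Aco1*, which doubles as an iron regulatory protein, fell (-0.54, limma adjusted p = 0.0356), with *Heph* and *Pcbp2*. *Tfrc*, the transferrin receptor, was at 0.04 on the log2 fold scale (limma adjusted p = 0.925).

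**Figure D5:**
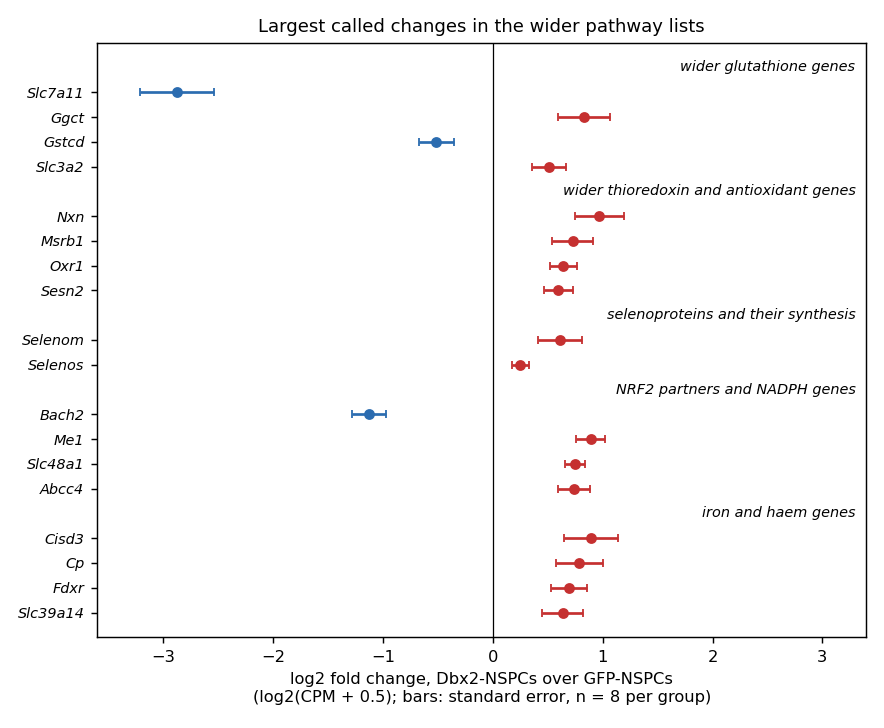
Log2 fold change between *Dbx2*-NSPCs and *GFP*-NSPCs (horizontal axis, on the log2(CPM + 0.5) scale) of up to 4 called genes with the largest changes in each of the 5 wider lists, among genes whose mean reached 10 CPM in a group, with bars for the standard error and n = 8 per group. *Slc7a11* lies farthest out at -2.87, and *Bach2* at -1.13 and *Gstcd* at -0.52 are the other blue points.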

How the data were processed

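NSPC RNA had been sequenced from 16 samples, 8 with the *Dbx2* transgene and 8 with *GFP*, with the QuantSeq 3' mRNA kit from 100 ng of total RNA each. Per the submitters' processing notes and the methods, the authors checked reads with FastQC 0.11.8, trimmed them with bbduk, aligned them with STAR 2.5.0a to GRCm38 and used edgeR 3.36, and they deposited 1 table of CPM. The counting tool and strand are not given in the sources used here. CPM divide each gene by its sample's total, so a few abundant genes can shift all others, and 3' reads of near-identical ends cannot be placed. Per sample 1803928 to 3293285 reads were recovered as whole multiples of a single read (100% of values, within 0.0051 CPM), and 0 columns were left out.

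Groups followed the transgene that the labels give. The filter asked for more than 1 CPM in 4 or more of the 16 samples and kept 12533 genes, all 37 members among them. Log2(CPM + 0.5) was tested with limma 3.58.1 in R 4.3.3 (lmFit, eBayes with trend, 2-sided) with p adjusted by Benjamini-Hochberg over the 12533 genes and a threshold of 0.05. No covariate was fitted, since the labels do not give the pair of lines that the study's edgeR model used. The difference between replicate sets was an interaction term. Same-numbered samples of the transgenes deviated together: across genes their deviations from the group means correlated at 0.152 to 0.303 in all 8 pairs (mean 0.226), against 0.199 for other numbers of the same replicate set and -0.206 across sets. 4 of 8 *GFP*-NSPC samples correlated best with their own number. Same-numbered samples were thus little closer than other samples of the same replicate set, and the labels do not say that the numbers pair samples. The block for the replicate number is therefore given only as an alternative.

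The members, the replicate sets and the wider lists were chosen with earlier results of these data known. All members were named. The lowest, median and highest level per group were given for called members with a log2 fold change of at least 0.5 in either direction, and also for *Txnrd1*. Members whose change differed between sets were given sample by sample, except *Nfe2l2*, given by mean and SD in each set. Of each wider list, at most 4 called genes whose group mean reached 10 CPM were named by the size of their change. *Bach1*, *Tfrc*, *Aco1* and the further called genes named without values were added after their values were seen. Cell type markers were a fixed list of general markers.

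Alternatives were pseudocounts of 0.1 and 2, no filter, a filter of more than 5 CPM in 8 or more samples, TMM and median-of-ratios scaling, the replicate block, the replicate set as a covariate, each set alone, eBayes with no trend, edgeR 4.0.16 or DESeq2 1.42.0 with the recovered reads as input, and leaving out each sample. Gene positions and overlaps came from GENCODE M21, copies outside a gene's own locus of the last 300 bases of its longest coding transcript from BLAST+ 2.17.0 (at least 95% identity over at least 100 bases), and promoters from RefSeq. The tests were tried on simulated data. Tables and plots used Python 3.11.15, numpy 2.4.6, pandas 2.3.3 and matplotlib 3.10.9.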

Additional observations from a re-analysis of the deposited data

Results flagged for a closer look

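Of 76 groups of 8 samples examined (each gene and the score, in each transgene), 7 had a sample far from the other 7, where chance gives about 1 in 20 groups. *GFP*-NSPC replicate 1 was the highest *GFP*-NSPC sample in *Gstm1* (618 CPM, the others 260 to 418), *Sod2* (117 CPM, the others 61.0 to 85.3), *Fth1* (932 CPM, the others 406 to 610.2) and the score over all members (1.83, the others 1.5 to 1.62). *Dbx2*-NSPC replicate 4 was the highest *Dbx2*-NSPC sample in *Txnrd1* (357 CPM, the others 191 to 269.6) and *Keap1* (148 CPM, the others 117 to 129). *Dbx2*-NSPC replicate 8 was the highest in *Gstm7* (70.2 CPM, the others 41.6 to 53.7).

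For 5 genes the change in replicates 5 to 8 less that in replicates 1 to 4 passed the test of the difference. It was 3.10 for *Gsta4* (limma adjusted p = 7.30e-07), 1.36 for *Mgst1* (0.0118), 1.08 for *Glrx* (0.00583), -0.91 for *Gpx1* (0.00141) and -0.57 for *Nfe2l2* (0.0321), on the log2 scale. *Gsta4* moved in opposite directions in the replicate sets, and which pair of lines a set holds is not given by the labels.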

How the results depend on the processing

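Over the alternatives other than leaving out a sample, the counts of members called ran from 5 to 8 higher and 2 to 5 lower, and the 8 and 5 came from replicates 5 to 8 alone. Leaving out 1 sample at a time gave 4 to 6 members higher, 2 to 3 lower, 16 to 23 wider genes higher, 5 to 12 wider genes lower and a score difference of 0.027 to 0.085. The wider genes called lower were 18 with the replicate block, 18 with the replicate set as a covariate and 14 in replicates 1 to 4 alone. Of all tested genes, 7.78% were called lower without the block and 10.9% with it. The replicate block added *Gstm1*, *Prdx5* and *Nqo1* and raised the members whose change differed between sets from 5 to 6 by adding *Prdx1*; it changed no other call of a member. Of the members not called, the sign of the log2 fold change turned in replicates 1 to 4 alone for *Gclc* (0.047), *Gstm5* (-0.10), *Mgst1* (-0.37), *Mgst3* (-0.11), *Txn2* (-0.0055) and *Keap1* (0.019). It turned in replicates 5 to 8 alone for *Gss* (-0.16), *Gpx1* (-0.10), *Gpx4* (0.20), *Gsta4* (1.41), *Gstp1* (0.16), *Prdx1* (-0.19), *Prdx3* (0.083), *Prdx6* (-0.040), *Glrx* (0.18) and *Cat* (0.053), and for *Cat* also with TMM (0.0046) and median-of-ratios scaling (0.0013). With 1 sample left out, the ranges that crossed 0 were -0.19 to 0.0073 for *Gsr*, -0.30 to 0.040 for *Gsta4*, -0.049 to 0.073 for *Gstm5*, -0.34 to 0.065 for *Gstp1*, -0.034 to 0.073 for *Txn2*, -0.024 to 0.13 for *Prdx1*, -0.17 to 0.057 for *Prdx3* and -0.069 to 0.033 for *Cat*. The cause of these turns was not tested. Over the 37 members and all alternatives, 1004 values kept direction and call, 40 turned sign, 17 gained a call and 9 lost one; *Txn1*, *Txnrd1* and *Srxn1* were not called in replicates 1 to 4 alone, where 4 samples a group were fitted. Genes near 3 reads, here *Nqo1*, *Gstp1* (which also shares its 3' end with *Gstp2*) and *Mgst3*, are left without a reliable fold change.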
